A study of Mus musculus with 6 samples.

Results

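Colony stimulating factors are secreted proteins that keep myeloid cells alive and drive their growth and maturation. The 9 genes described here are the ligands Csf1 (M-CSF), Il34, Csf2 (GM-CSF) and Csf3 (G-CSF) and the receptor chains Csf1r, Csf2ra, Csf2rb, Csf2rb2 and Csf3r. They were taken by symbol from a list of these pathways, and are 9 of the 31053 genes in the count tables. The question was which of 2 cell fractions of a culture held ligand transcripts, which held receptor transcripts, and how both moved over 3 days.

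Csf1 and Il34 are alternative ligands of 1 receptor, the tyrosine kinase encoded by Csf1r, on which macrophages depend. GM-CSF binds an alpha chain (Csf2ra) that pairs with the common beta chain (Csf2rb), which lacks a kinase of its own and signals through Jak2 and Stat5. In the lung, GM-CSF is known for the development of alveolar macrophages around birth. G-CSF acts on Csf3r, the receptor of the neutrophil lineage. In mice a second beta chain gene, Csf2rb2, encodes a close copy of Csf2rb that serves the interleukin 3 receptor.

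The libraries came from lungs of wild-type C57BL6 mouse fetuses at E17, digested to single cells with liberase, frozen in DMSO and replated on diluted Matrigel, a basement membrane extract. All groups grew in the same medium for haematopoietic stem and progenitor cells with thrombopoietin (mTPO), IL6, stem cell factor (SCF), FGF, VEGF and Flt3, and were washed on day 3. On days 4, 5 and 6 the floating cells (suspension) and the layer on the plate (adherent) were taken separately, giving 1 library per fraction and day. Accutase was used to detach the adherent layer, which was then sorted for live cells with VE-cadherin, the cadherin of endothelial junctions. Attachment and handling therefore cannot be told apart. Nothing in the labels tells if the days came from separate cultures. The p-values thus reflect the spread among 3 libraries of a fraction, which includes the change over days and may otherwise be technical.

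Each table holds reads per gene summed over a whole droplet library with no cell axis. Sense-strand gene counts ran from 36451255 to 57784974 per library, so that 3 counts equalled 0.0594 to 0.0756 CPM (counts scaled by library total and TMM factor). In such sums, fewer cells of a type and less RNA per cell cannot be told apart. Summed endothelial markers stood at 648 to 1691 CPM in the adherent libraries and at 13.3 to 20.3 CPM in suspension. The adherent libraries also held fibroblast markers (1504 to 2330 CPM summed) and macrophage markers (1465 to 3365 CPM), although they had been sorted for VE-cadherin. Suspension libraries held macrophage markers at 4804 to 6364 CPM and neutrophil markers at 26057 to 78691 CPM.

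Transcripts of 3 of the 4 ligands were higher in the adherent fraction, and those of all 5 receptor chains in suspension. Csf2 overlapped between fractions, Csf1 was also read in suspension, and all 5 chains were also read in the adherent libraries. Of the 4 ligands, 3 had enough counts to be tested, and all 3 were lower in suspension at an adjusted p under 0.05. That call was made for 29.7% of the 14912 genes tested. Il34 and Csf3 passed the count filter only through the adherent libraries, where they are high, so their direction was favoured by the filter. Csf1 had enough counts in both fractions. With at least 10 CPM in 3 libraries, 1 ligand was left to test. All 5 receptor chains were higher in suspension, a call made for 27.1% of the genes tested. For each of these 8 genes the 3 libraries of 1 fraction lay wholly above the 3 of the other. Over all genes tested, 33.4% had every suspension library above every adherent one and 34.4% the reverse.

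**Figure D1:**
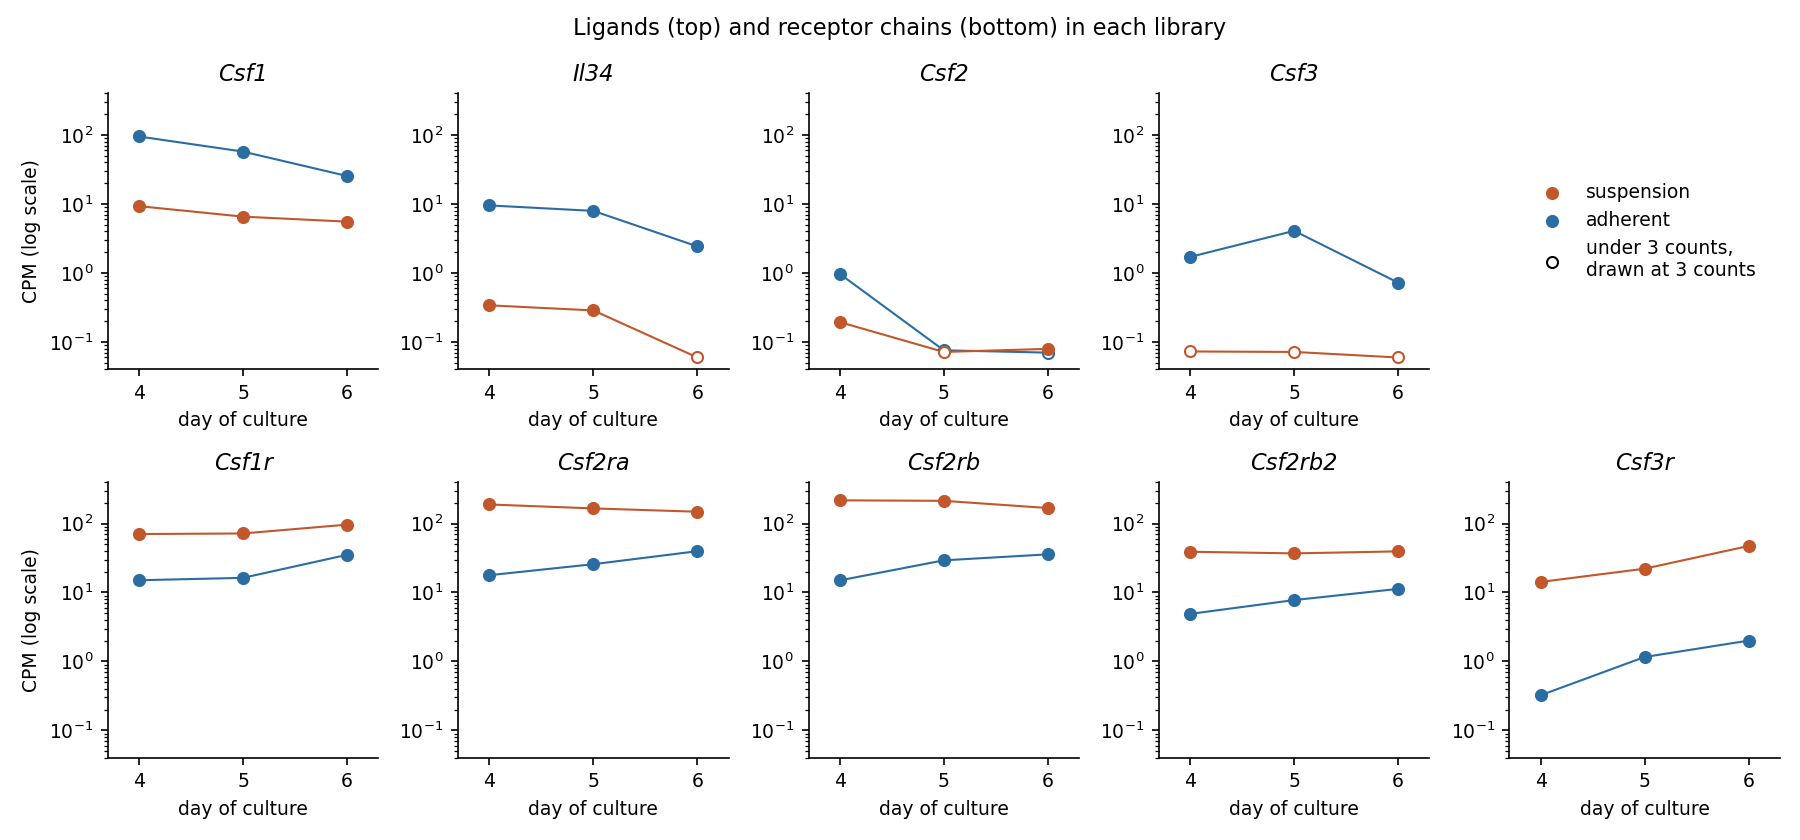
Level of each ligand (top row) and receptor chain (bottom row) in CPM, on a log axis, against the day of culture. Each point is 1 library, lines join the days of a fraction, and open points are libraries with under 3 counts, drawn at 3 counts. The adherent points lie above for Csf1, Il34 and Csf3, and the suspension points lie above for all 5 receptor chains.

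Csf1, the main growth factor of macrophages, stood at 95.2, 57.5 and 25.5 CPM in the adherent libraries of days 4, 5 and 6. In suspension it stood at 9.30, 6.55 and 5.54 CPM on the same days. The lowest adherent library was thus above the highest suspension library, and both fractions had their highest value on day 4. The log2 ratio of suspension over adherent was -3.06 ± 0.50 (SE, n = 3 per fraction), 8.33-fold lower, with an adjusted p of 0.00303 in edgeR's quasi-likelihood test. Within a day the adherent level was 10.2-fold higher on day 4, 8.78-fold on day 5 and 4.59-fold on day 6.

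Il34, the alternative ligand of the Csf1 receptor, had 413, 315 and 104 counts in the adherent libraries of days 4, 5 and 6, or 9.53, 7.93 and 2.42 CPM. It had 14, 12 and 0 counts in suspension. The adherent level over all days was 34.0-fold higher (95% counting interval 23.0 to 52.3), and on day 6 at least 40.8-fold higher against a floor of 3 counts. These intervals cover counting error only. They take each read as independent, and reads are not molecules, so the intervals may be too narrow. The log2 ratio was -5.01 ± 1.03 (SE, n = 3 per fraction), with an adjusted p of 0.00687 in edgeR's quasi-likelihood test. With suspension day 4 left out it was -5.63, and with suspension day 6 left out it was -4.43.

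Csf3, the neutrophil growth factor G-CSF, had 74, 162 and 31 counts in the adherent libraries of days 4, 5 and 6, or 1.71, 4.08 and 0.722 CPM. In suspension it had 0, 0 and 2 counts. Over all days the adherent level was 142-fold higher, with a wide counting interval of 38.9 to 1180 because it rests on 2 suspension counts. The fitted log2 ratio was -6.95 with an adjusted p of 0.00289 (edgeR), a size that depends on how 0 counts are handled. With suspension day 6 left out it was -9.51, and with adherent day 5 left out it was -6.12. Day 5 was the highest adherent library, unlike Csf1 and Il34, which were highest on day 4.

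Csf2, which encodes GM-CSF, was near the limit of detection and passed no filter for testing. It had 42, 2 and 1 counts in the adherent libraries of days 4, 5 and 6 and 8, 2 and 4 counts in suspension, so that the fractions overlapped. On day 4 the adherent level was 0.969 CPM against 0.194 CPM in suspension, 5.0-fold higher with a counting interval of 2.32 to 12.3. On day 5 the ratio was 1.06 (0.0766 to 14.6) and on day 6 it was 0.294 (0.00597 to 2.97). Of its 45 adherent counts, 42 thus came from 1 library.

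The adherent libraries, with the higher levels of Csf1, Il34 and Csf3, held several cell classes. Beside the endothelial, fibroblast and macrophage sums above, epithelial markers summed to 1465, 348 and 973 CPM on days 4, 5 and 6. Of 5 mesothelial markers, Lrrn4 was at 0 in all 6 libraries, and Wt1 (0.0692, 0.201 and 0.443 CPM) and Upk3b (0, 0 and 0.116 CPM) were near 0 in the adherent ones. Their sum of 175, 61.3 and 44.5 CPM came mostly from Krt19, a keratin that is also in the epithelial list (117, 46.9 and 38.0 CPM), and from Msln. All of 9 endothelial, 8 of 8 fibroblast and 4 of 8 epithelial markers were lower in suspension, against 29.7% of the genes tested. Which of these cells carried the ligand transcripts was not tested.

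The receptor for Csf1 and Il34 had the pattern opposite to its ligands. The suspension libraries of days 4, 5 and 6 held 70.4, 71.7 and 96.3 CPM of Csf1r, and the adherent ones 15.0, 16.3 and 35.2 CPM. In both fractions day 6 was the highest library. The log2 ratio was 1.84 ± 0.36 (SE, n = 3 per fraction), 3.59-fold higher in suspension, with an adjusted p of 0.00567 in edgeR's quasi-likelihood test. Of the 9 genes, the smallest tested difference between fractions was that of Csf1r.

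Csf2ra, the alpha chain that binds GM-CSF, stood at 189, 166 and 148 CPM in suspension and at 17.8, 25.7 and 39.7 CPM in the adherent libraries. Suspension was highest on day 4 and adherent on day 6, so that the fractions drew closer each day without meeting. The ratio of suspension to adherent was 10.6 on day 4, 6.44 on day 5 and 3.74 on day 6. The log2 ratio over all days was 2.59 ± 0.30 (SE, n = 3 per fraction), with an adjusted p of 0.00103 in edgeR's quasi-likelihood test.

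Csf2rb, the beta chain shared by the receptors for GM-CSF, interleukin 3 and interleukin 5, stood at 217, 213 and 168 CPM in suspension. Its adherent levels were 15.0, 29.2 and 35.7 CPM. Here too the lowest suspension library and the highest adherent library were both those of day 6. The log2 ratio was 2.90 ± 0.33 (SE, n = 3 per fraction), 7.48-fold, with an adjusted p of 0.00098 in edgeR's quasi-likelihood test.

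Csf2rb2, the copy that serves the interleukin 3 receptor, hardly moved between suspension libraries, at 39.0, 36.9 and 39.5 CPM. The adherent libraries held 4.89, 7.76 and 11.3 CPM, again highest on day 6. The log2 ratio was 2.27 ± 0.29 (SE, n = 3 per fraction), 4.82-fold, with an adjusted p of 0.00139 in edgeR's quasi-likelihood test. The ligand of that receptor, Il3, was at 0 in all 6 libraries, as was Il5.

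Csf3r, the G-CSF receptor, had the largest difference of the receptor chains. The suspension libraries held 14.2, 22.1 and 47.2 CPM, and the adherent ones 0.323, 1.16 and 2.0 CPM, from 14, 46 and 86 counts. Both fractions were lowest on day 4 and highest on day 6. The log2 ratio was 4.58 ± 0.75 (SE, n = 3 per fraction), 23.9-fold, with an adjusted p of 0.00296 in edgeR's quasi-likelihood test. Leaving out day 6 moved it to 3.96 (suspension left out) or 5.25 (adherent left out).

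**Figure D2:**
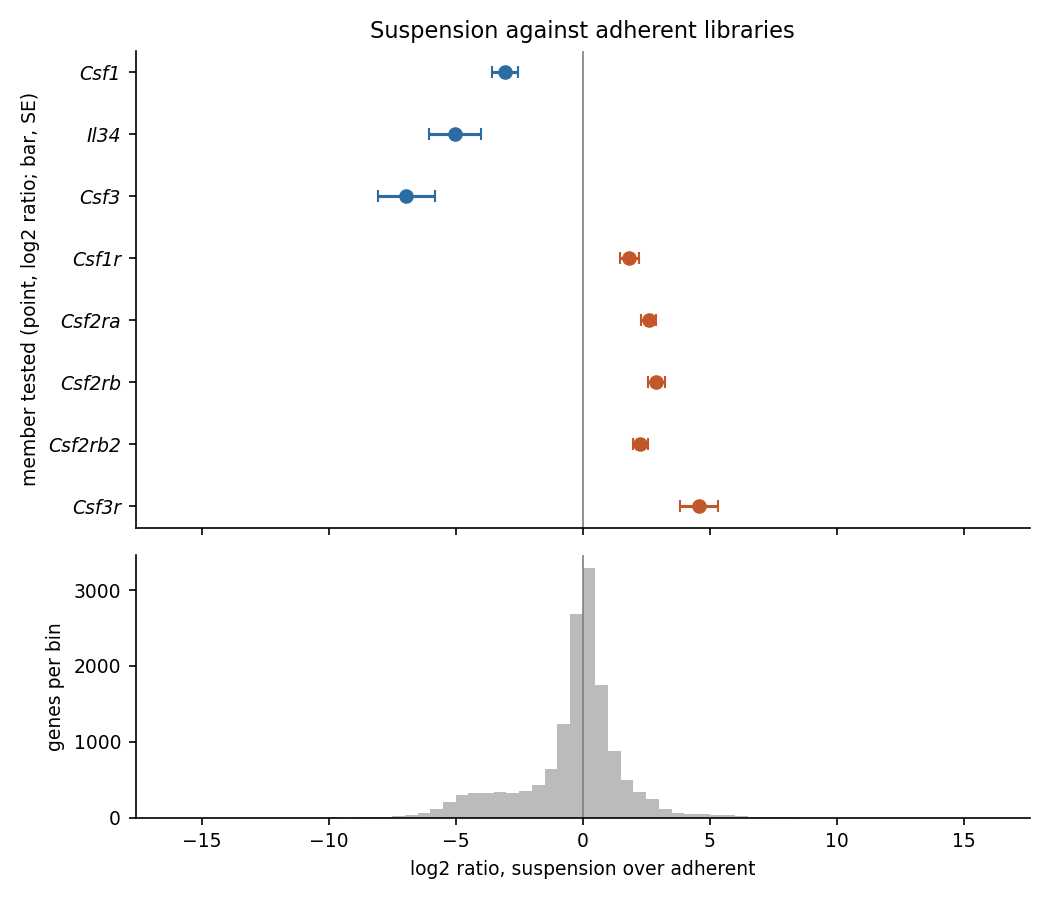
Log2 ratio of suspension over adherent for the 8 genes tested (upper panel, points with standard errors as bars, ligands blue and receptor chains orange) and the same ratio for all 14912 genes tested (lower panel, genes per bin). The ligands lie at -3.06 to -6.95 and the receptor chains at 1.84 to 4.58, on opposite sides of 0.

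The order of these ratios among all genes is a description of the libraries. Csf3 lay lower than all but 0.543% of the genes tested and Csf1 lower than all but 11.7%. Csf1r had a higher ratio than 92.4% of the genes tested and Csf3r than 98.8%. Levels of different genes are not compared here, since the values count reads, not molecules.

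Promoter sequences are shown for 3 receptor chains that were high in the same fraction and for Csf1, the ligand with the most counts. Windows of 5 of the 9 genes were used (Csf1, Csf2, Csf2ra, Csf2rb2 and Csf3r), taken from RefSeq (GRCm38.p6). The sequences shown run from 250 bases before the start to 50 bases from it, 5′ to 3′ along the gene. They lie at chr4:126024409-126024708 on the plus strand (Csf3r), chr15:78305672-78305971 on the minus strand (Csf2rb2), chr19:61228369-61228668 on the minus strand (Csf2ra) and chr3:107760420-107760719 on the minus strand (Csf1). Capitals mark GAGGAA on either strand, a core of PU.1 sites, in the receptor chains. In Csf1 they mark a match to GGNNTTTCC, the letters of an NF-kB site, on the other strand.
Csf3r: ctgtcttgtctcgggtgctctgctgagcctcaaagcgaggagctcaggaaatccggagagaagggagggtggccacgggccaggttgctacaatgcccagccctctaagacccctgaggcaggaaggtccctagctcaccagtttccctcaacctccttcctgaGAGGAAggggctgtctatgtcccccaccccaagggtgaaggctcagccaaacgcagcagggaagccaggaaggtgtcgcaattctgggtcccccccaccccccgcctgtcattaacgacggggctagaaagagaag
Csf2rb2: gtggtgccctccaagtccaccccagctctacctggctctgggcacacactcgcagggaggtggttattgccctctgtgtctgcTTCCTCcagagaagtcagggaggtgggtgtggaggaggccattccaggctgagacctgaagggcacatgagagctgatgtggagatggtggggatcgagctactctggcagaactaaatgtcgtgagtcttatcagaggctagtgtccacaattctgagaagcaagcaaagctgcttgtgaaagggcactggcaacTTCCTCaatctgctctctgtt
Csf2ra: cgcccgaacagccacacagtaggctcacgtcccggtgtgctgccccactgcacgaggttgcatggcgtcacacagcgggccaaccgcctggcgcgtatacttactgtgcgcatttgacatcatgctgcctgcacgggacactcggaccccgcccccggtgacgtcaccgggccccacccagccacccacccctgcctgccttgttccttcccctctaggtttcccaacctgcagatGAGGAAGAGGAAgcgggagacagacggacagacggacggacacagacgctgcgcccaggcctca
Csf1: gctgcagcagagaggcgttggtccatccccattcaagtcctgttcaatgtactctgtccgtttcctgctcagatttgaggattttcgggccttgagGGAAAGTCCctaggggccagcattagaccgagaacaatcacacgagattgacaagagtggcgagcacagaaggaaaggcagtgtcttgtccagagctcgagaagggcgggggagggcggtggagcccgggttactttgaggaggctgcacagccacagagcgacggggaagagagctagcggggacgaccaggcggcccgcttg

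GAGGAA was found 1 time in the Csf3r window and 2 times each in those of Csf2rb2 and Csf2ra, where the 2 copies adjoin. The windows of Csf1 and Csf2 held none, and 28.3% of all 32851 promoters in the table hold at least 1. GGNNTTTCC was found in the windows of Csf1 and Csf2 and in 5.8% of all promoters. The Csf2 window (chr11:54249850-54250149, minus strand) lies wholly upstream of the gene as counted, whose 5′ end is at 54249667. Matches and absences in that window thus do not describe the bases next to that end. TTNCNNAA, the letters of a C/EBP site, was found in those of Csf2, Csf2rb2 and Csf2ra, where 1 match in Csf2rb2 overlaps a GAGGAA match, and in 40.7% of all promoters. TTCNNNGAA, a STAT site, was found in Csf2rb2 only among these 5 (8.3% of all), and TGTGGT, a RUNX site, in none of the 5 (16.8% of all). Both strands were searched, and a match says only that these letters are present.

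Csf2rb and Csf2rb2 are near copies, so their reads could be confused. Their coding sequences have 2691 and 2637 bases and were identical at 95.2% of 2631 aligned bases. The last 500 bases of the transcripts, where a 3′ library takes most of its reads, shared 0 of 411 stretches of 90 bases. A stretch of 90 coding bases close to the stop codon is shown because it lets the copies be told apart. It lies at chr15:78349042-78349131 on the plus strand in Csf2rb and at chr15:78284317-78284406 on the minus strand in Csf2rb2 (GRCm38). Capitals mark the 7 bases at which they differ.
Csf2rb: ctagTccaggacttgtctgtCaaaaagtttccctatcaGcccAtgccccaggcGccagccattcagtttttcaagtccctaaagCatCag
Csf2rb2: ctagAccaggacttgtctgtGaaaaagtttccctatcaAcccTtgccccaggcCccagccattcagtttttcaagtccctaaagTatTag

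The share of the copy differed between fractions. Csf2rb2 gave 15.2%, 14.7% and 19.0% of the summed counts of the pair in suspension on days 4, 5 and 6. In the adherent libraries it gave 24.6%, 21% and 24.0%, so that every adherent library lay above every suspension one. The means were 16.3% ± 2.36 and 23.2% ± 1.96 (SD, n = 3 each), with an exact two-sided permutation p of 0.1, the smallest that 3 against 3 libraries allow. The Wilson 95% intervals of the adherent day 5 library (19.0% to 23.1%) and the suspension day 6 library (18.3% to 19.8%) overlapped.

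**Figure D3:**
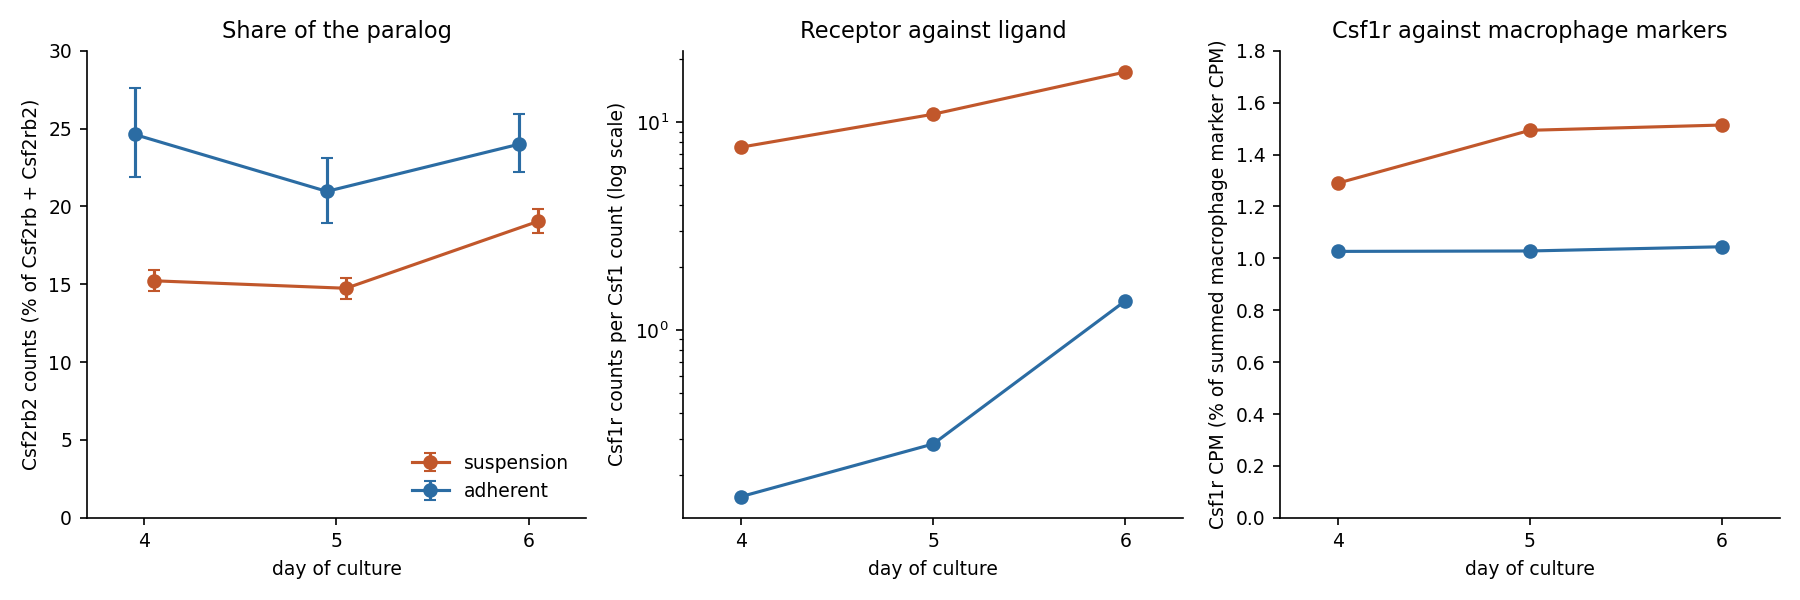
Against the day of culture, in suspension (orange) and adherent (blue) libraries: the share of Csf2rb2 in the counts of Csf2rb and Csf2rb2 in percent, with Wilson 95% intervals (left), Csf1r counts per Csf1 count on a log axis (middle), and Csf1r as a percent of the summed CPM of 9 macrophage markers, most of it from C1q genes (right). Csf1r per Csf1 count rose from 0.158 to 1.38 over days 4 to 6 in the adherent libraries, and Csf1r per marker level was close to 1.03% in all 3 of them.

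The balance of receptor and ligand within a library moved over the days. In suspension there were 7.57, 10.9 and 17.4 Csf1r counts for each Csf1 count on days 4, 5 and 6. In the adherent libraries there were 0.158, 0.283 and 1.38. Day 6 was the highest library in both fractions. The ratio was 8.73-fold higher on day 6 than on day 4 in adherent cells and 2.3-fold higher in suspension. The suspension ratio was 47.9, 38.5 and 12.6 times the adherent one on days 4, 5 and 6. Counts are reads, not molecules, so the ratio 1 has no meaning of its own, and only its change between libraries can be read.

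Set against the summed level of 9 macrophage markers, Csf1r in the adherent libraries equalled 1.03%, 1.03% and 1.04% on days 4, 5 and 6, while the sum itself was 2.30-fold higher on day 6 than on day 4 and Csf1r was 2.34-fold higher. In suspension it equalled 1.29%, 1.49% and 1.51%, above every adherent library (exact two-sided permutation p = 0.1, the smallest possible). Csf2ra equalled 3.46%, 3.45% and 2.33% of the sum in suspension and 1.22%, 1.62% and 1.18% in the adherent libraries. Csf2rb (3.98%, 4.44% and 2.64% against 1.02%, 1.85% and 1.06%) and Csf2rb2 (0.714%, 0.768% and 0.620% against 0.334%, 0.490% and 0.335%) likewise lay higher in suspension. Receptor reads may also come from cells other than macrophages, which was not tested. Summed neutrophil markers were 26057 to 78691 CPM in suspension and 268 to 1126 CPM in the adherent libraries. These ratios to macrophage markers also depend on the marker chosen. C1qa, C1qb and C1qc, which encode complement C1q, made up 62.1% to 66.2% of the sum in suspension and 73.6% to 76.1% in the adherent libraries. Set against each of the 9 markers singly, Csf2ra and Csf2rb had all suspension libraries above all adherent ones for 8, and overlapped for Mrc1. Csf2rb2 did so for 4 of 9 and Csf1r for 3 of 9, the C1q genes. Relative to Adgre1, the gene of the macrophage surface marker F4/80, Csf1r gave ratios of 0.405, 0.533 and 0.735 in suspension and 0.659, 0.668 and 0.708 in the adherent libraries, which overlap.

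Csf3r went the other way when set against the sum of 11 neutrophil markers. It equalled 0.0546%, 0.0659% and 0.0600% of their summed level in suspension on days 4, 5 and 6 and 0.12%, 0.133% and 0.178% in the adherent libraries. All adherent libraries thus lay above all suspension libraries (exact two-sided permutation p = 0.1, the smallest possible), although the level itself was 23.9-fold higher in suspension. This too depends on the marker: of 10 markers with counts in every library, 6 gave a higher ratio in all adherent libraries, 3 overlapped, and Mmp8 gave a higher ratio in all suspension libraries. Some of these ratios rest on few counts. On adherent day 4 Csf3r had 14 counts. There Elane (0.0231 CPM) was under the floor of 3 counts (0.0692 CPM). Ly6g (0.0692 CPM), Mpo (0.115 CPM) and Retnlg (0.0923 CPM) were at or near it. Elane, Ly6g and Mpo are the 3 that overlapped, and Retnlg is among the 6. The sum is dominated by abundant genes such as S100a8 and S100a9 and was 26057, 33550 and 78691 CPM in suspension against 268, 868 and 1126 CPM in the adherent libraries.

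Over the days, the receptor chains rose and Csf1 fell in the adherent fraction. All 5 receptor chains rose there at an adjusted p under 0.05 (edgeR's quasi-likelihood test of the log2 change per day), against 7.75% of the genes tested. Csf1 was the 1 ligand of 3 tested that fell, against 3.52% of the genes tested. In suspension 0 of 8 passed the same test, against 0.496% of the genes tested in either direction. Of these 8, 3 (Csf1, Csf2ra and Csf3r) had an unadjusted p under 0.05, against 16.5% of the genes tested. By DESeq2's Wald test 1 of 8 passed, against 5.83% of the genes with an adjusted p. Csf3r passed in edgeR too when the adherent library of day 4, 5 or 6 was left out (adjusted p = 0.0121, 0.0114 and 0.0115).

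**Figure D4:**
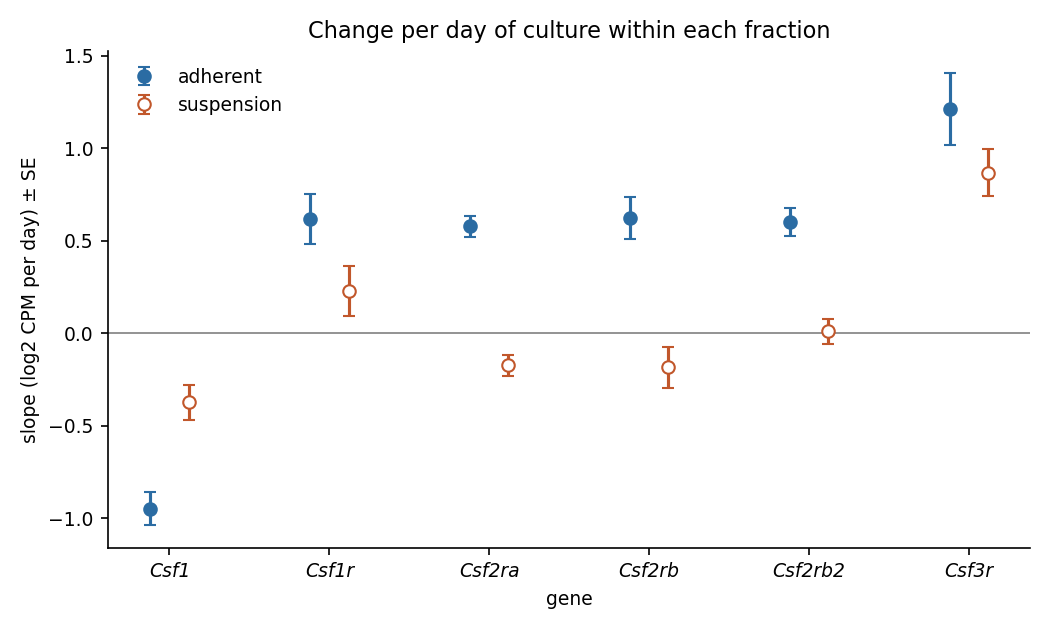
Change per day of culture in log2 CPM, with standard errors as bars, for the 6 genes with enough counts in both fractions, adherent in filled blue and suspension in open orange points. In adherent cells Csf1 lies at -0.95 and the receptor chains between 0.58 and 1.21, while in suspension the highest slope is that of Csf3r at 0.87.

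Csf1 fell in the adherent libraries by 0.95 ± 0.09 on the log2 scale per day (adjusted p = 0.0098, edgeR), 3.74-fold lower on day 6 than on day 4. Its slope in suspension was -0.37 ± 0.09 (adjusted p = 0.157), and the difference of the slopes, 0.58 ± 0.13, did not pass the test (adjusted p = 0.108). Il34 had an adherent slope of -0.97 ± 0.41 (adjusted p = 0.182), and Csf3 one of -0.56 ± 0.75 (adjusted p = 0.674). Without the adherent library of day 6 the fall of Csf1 had an adjusted p of 0.0658.

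Csf3r rose most steeply in adherent cells, by 1.21 ± 0.19 per day on the log2 scale (adjusted p = 0.0238), from few counts. Csf1r rose by 0.62 ± 0.14 (adjusted p = 0.0477), Csf2ra by 0.58 ± 0.06 (adjusted p = 0.0102), Csf2rb by 0.62 ± 0.11 (adjusted p = 0.032) and Csf2rb2 by 0.60 ± 0.07 (adjusted p = 0.0144), all in edgeR. From day 4 to day 6 these 4 chains were 2.23-fold to 2.38-fold higher. The slopes rest on 3 libraries and 2 residual degrees of freedom. Of the 5 chains 1 passed without the suspension library of day 4, 5 or 6 (Csf2ra each time), 1 without the adherent library of day 4 (Csf1r), 1 without that of day 6 (Csf2rb) and 5 without that of day 5. Without the adherent library of day 6 the slope of Csf1r was 0.12, that of Csf2rb 0.97 and that of Csf3r 1.83. Without that of day 4 they were 1.11, 0.29 and 0.79.

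Markers of several cell classes moved over the same days. Summed macrophage markers in adherent libraries were 1465, 1585 and 3365 CPM on days 4, 5 and 6, with 5 of 9 markers rising. Neutrophil markers were 268, 868 and 1126 CPM with 3 of 11 rising, and mast cell and basophil markers 31.9, 138 and 257 CPM with 1 of 8 rising. Within the latter list Mcpt8 (31.6, 59.1 and 3.40 CPM) made up most of the sum on day 4 and was lowest on day 6. Cpa3 (0, 28.2 and 93.0 CPM), Cma1 (0.300, 30.3 and 85.2 CPM) and Tpsb2 (0, 18.8 and 72.3 CPM) were highest on day 6. Of these, only Tpsb2 passed the slope test. Ms4a2, Fcer1a, Mcpt4 and Prss34 were at 1.33 CPM or below. Over all genes tested 7.75% rose, so that a call on 1 marker in a list says little. Lymphoid markers were 10.4, 22.7 and 27.0 CPM with 1 of 5 tested rising. That gene, Rora (7.34, 15.0 and 19.2 CPM), made up most of the sum. Among the lymphoid markers Cd3e and Ncr1 were at 0 in all libraries and Cd3d in the adherent ones. Erythroid markers were 0.577, 2.27 and 0.093 CPM, lowest on day 6, with 0 of 4 rising. Fibroblast markers were 1504, 2330 and 2317 CPM, with 2 of 8 rising. In the same libraries 4 of 8 epithelial and 2 of 2 tested mesothelial markers fell, with Krt19 in both lists, against 3.52% of the genes tested. Endothelial markers were 855, 1691 and 648 CPM, highest on day 5. Of 9 endothelial markers 0 rose and 0 fell by the test of a slope per day, which does not describe a peak on day 5. The part of these cells in the rise of the receptor chains or the fall of Csf1 was not tested.

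In suspension the slopes of Csf2ra (-0.17 ± 0.06, adjusted p = 0.224) and Csf2rb (-0.19 ± 0.11, adjusted p = 0.467) were below 0 and that of Csf3r was 0.87 ± 0.13 (adjusted p = 0.0668). Summed neutrophil markers in suspension were 3.02-fold higher on day 6 than on day 4, and Csf3r was 3.32-fold higher. The slopes of Csf2ra differed between fractions by -0.75 ± 0.08 (adjusted p = 0.0485, edgeR interaction test), the 1 of 8 genes for which they did, against 0.516% of the genes tested. For Csf2rb that difference was -0.81 ± 0.16 (adjusted p = 0.09) and for Csf2rb2 -0.59 ± 0.10 (adjusted p = 0.0782). The call for Csf2ra was lost without the suspension library of day 4 (adjusted p = 0.279), day 5 (0.103) or day 6 (0.7). It was also lost when adherent day 4 (0.074) or adherent day 6 (0.094) was left out. Without the adherent library of day 5, 4 of the 8 genes passed. For a slope common to both fractions, 0 of 8 genes passed the test, against 0.0134% of the genes tested. Of these 8, 4 had an unadjusted p under 0.05 in edgeR, against 20.4% of the genes tested. By DESeq2's Wald test 3 of 8 passed, against 10.5% of the genes with an adjusted p.

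Genes with the most similar profiles over the 6 libraries were found by the root-mean-square difference of centred log2 levels. Closest to Csf1 was Tuba1a, an alpha tubulin, at 0.18, followed by Oaf at 0.21 and Pdlim1 at 0.24. Closest to Csf1r was Tlr7, a sensor of single-stranded RNA, at 0.065, followed by Slc7a8 and Pdxk. Csf2ra was closest to Tfec (0.11), Gpr137b and Cd200r4, Csf2rb to Naaa (0.13), Ptpn7 and Itgb2, and Csf2rb2 to Lfng (0.074), Aldh3b1 and Lpxn. Csf3r was closest to Serpinb1a, an inhibitor of neutrophil proteases, at 0.23, followed by Slfn1 and Ltb4r1, a leukotriene B4 receptor. Between receptor chains, Csf2ra and Csf2rb2 were nearest, at 0.20, and Csf2ra and Csf2rb were at 0.22.

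Downstream of the receptors, 11 of 17 signal transducers were higher in suspension, 2 were lower and 4 did not pass the test. Their median log2 ratio was 1.16, against -0.0025 over all genes tested. For this list and those below, the shares over all genes tested were 27.1% higher and 29.7% lower in suspension. Tyrobp, the adaptor that couples receptors to tyrosine kinases in myeloid cells, stood at 3231, 3294 and 3496 CPM in suspension and 342, 539 and 1088 CPM in the adherent libraries (log2 ratio 2.35 ± 0.42). Grb2, an adaptor between receptors and Ras, was at 261 ± 34.2 CPM in suspension and 99.7 ± 23.0 CPM in adherent libraries (SD, n = 3 each). Jak2, the kinase bound to the common beta chain, went the other way, at 21.4, 22.5 and 24.2 CPM in suspension and 87.0, 78.5 and 58.9 CPM in the adherent libraries (log2 ratio -1.72 ± 0.16, adjusted p = 0.000626, edgeR). Shc1, another adaptor, was also lower in suspension (log2 ratio -1.11 ± 0.10), and did not pass a test against a 2-fold difference. Thus the beta chains and Jak2 were high in opposite fractions. Stat5a (log2 ratio 0.98 ± 0.23, adjusted p = 0.0111) and Stat5b (0.90 ± 0.22, adjusted p = 0.0137, both edgeR) were higher in suspension, as the beta chains were.

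Of 11 inhibitors of these signals 5 were higher in suspension, 3 were lower and 3 did not pass, with a median log2 ratio of 0.20. Ptpn6, the phosphatase SHP-1, was 193 ± 12.4 CPM in suspension and 26.5 ± 15.5 CPM in adherent libraries (SD, n = 3 each), and Cbl, a ubiquitin ligase for Csf1r, was 80.5 ± 11.6 and 38.1 ± 0.96 CPM, not past a test against a 2-fold difference. Socs2, a suppressor of cytokine signalling, was 19.6 ± 4.07 CPM in suspension and 55.5 ± 13.9 CPM in adherent libraries. Spry2, an inhibitor of receptor tyrosine kinase signals, was 2.93 ± 0.18 CPM and 39.6 ± 3.86 CPM (log2 ratio -3.76 ± 0.13, adjusted p = 0.0003, edgeR).

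Of 10 transcription factors known to act on the receptor genes, 8 were higher in suspension, 1 was lower and 1 did not pass, with a median log2 ratio of 1.09. Spi1, which encodes PU.1, stood at 394, 413 and 471 CPM in suspension and at 35.2, 57.2 and 110 CPM in adherent libraries (log2 ratio 2.66 ± 0.41, adjusted p = 0.00252, edgeR). Cebpb was higher in suspension by 0.84 ± 0.17 on the log2 scale, and did not pass a test against a 2-fold difference. Ets2 was lower, at 10.1 ± 1.1 CPM against 49.2 ± 12.1 CPM (SD, n = 3 each). Of 9 tested genes known from the GM-CSF response in alveolar macrophages, 8 were higher in suspension and 0 lower, against 27.1% of the genes tested called higher. The 9 macrophage markers gave 7 higher and 0 lower. Whether the 8 genes follow GM-CSF or macrophage content was not tested. Among them were the fatty acid binding proteins Fabp5 (8607 ± 318 against 2373 ± 1190 CPM) and Fabp4 (2012 ± 216 against 417 ± 264 CPM). The log2 ratio of Fabp4, 2.27, was 2.92 without the adherent library of day 6.

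Receptors and ligands related to these were mixed: of 10 listed genes 7 were tested, 1 was higher in suspension, 3 were lower and 3 did not pass. Flt3, a receptor tyrosine kinase of blood progenitors, was higher in suspension from few counts (0.726, 0.596 and 0.990 CPM against 0.0461, 0.0504 and 0.0466 CPM). Pdgfra, a relative of Csf1r in mesenchymal cells, was 3.83 ± 1.64 CPM in suspension and 111 ± 25.0 CPM in adherent libraries, and Kitl, stem cell factor, was 5.06 ± 0.71 and 48.5 ± 16.5 CPM (SD, n = 3 each). Sdc1, a syndecan that binds Il34, was lower in suspension by 3.26 ± 0.66 on the log2 scale (by 4.18 without the suspension library of day 4). Of 6 tested cytokines known to induce colony stimulating factors, 4 were higher in suspension, 1 was lower and 1 did not pass. Il18 stood at 241, 216 and 185 CPM in suspension and 10.8, 21.9 and 49.2 CPM in adherent libraries, and Il1a at 14.9, 14.4 and 14.5 against 1.41, 2.09 and 6.15 CPM. The call for Il1a (log2 ratio 2.18, adjusted p = 0.0136 in edgeR) was lost without the adherent library of day 5 (adjusted p = 0.0509) and against a 2-fold difference (0.0628). Without the adherent library of day 6 the log2 ratio was 3.07 for Il1a and 3.71 for Il18, which was 2.97 with all libraries. Il33 was 2.11, 1.29 and 0.139 CPM in suspension and 11, 10.7 and 16 CPM in adherent libraries (log2 ratio -3.42, and -4.19 without the suspension library of day 4). The fraction with the higher levels of Csf1, Il34 and Csf3 was therefore lower in Il1a and Il18 and higher in Il33.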

How the data were processed

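For each of 6 libraries (10x 3′ v3), the authors deposited a table of read counts by gene, with columns for unstranded, sense and antisense reads. Per the submitters' processing notes the tools were bcl2fastq, Cell Ranger and STARsolo on mm10. The versions and the annotation release were not given in the sources used here. Counts are reads, not molecules, over all droplets, and reads that map to several places count for no gene, which lowers genes with close copies. Summary lines that name no gene stayed out of the library totals. Between 44.5% and 62.4% of a library's reads were assigned to a gene on the sense strand.

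Sense counts were used. Gene symbols and positions were read from GENCODE M21 (GRCm38, equal to mm10), which held 31011 of 31053 identifiers. Of 22019 genes with a count, 14912 passed edgeR's filterByExpr, and libraries were scaled by TMM. Versions were R 4.3.3, edgeR 4.0.16, limma 3.58.1 and DESeq2 1.42.0. The quasi-likelihood test compared the fractions with 4 residual degrees of freedom. With 3 it tested 1 slope per day shared by the fractions, and with 2 the slopes within each and their difference. Benjamini-Hochberg adjustment ran over all genes tested, at a threshold of 0.05. The days serve as replicates of a fraction. The ± of a log2 ratio or slope is an approximate standard error, taken as its size over the square root of F. Ratios against few counts have 95% exact counting intervals, and shares Wilson intervals. Both take each read as independent and may be too narrow, since the counts are reads, not molecules.

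Tests were run on simulated data, where false calls were above the nominal rate in every comparison, most of all for the suspension slope and the difference of slopes, so that calls near the threshold need care, on slopes above all. DESeq2 was an alternative. The genes, their lists (7 of pathway genes, 11 of markers) and the tests were chosen with earlier results of these data known. All 9 genes are named. For each with a mean of at least 5 CPM, the 3 genes of most similar profile are named among those with a mean of at least 20 CPM. From each pathway list, the 2 called genes of highest mean CPM in each direction are named. Ratios of receptor to ligand, to marker sums and to single markers were added after the values had been seen. Of the marker lists, erythroid markers were higher in suspension in 4 of 4 tested genes, eosinophil markers in 2 of 2 and megakaryocyte markers in 1 of 4. Over all genes tested the share was 27.1%.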

Additional observations from a re-analysis of the deposited data

Results flagged for a closer look

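The change per day of Csf2ra differed between fractions, with a slope in suspension minus adherent of -0.7529 on the log2 scale by edgeR's interaction test (adjusted p = 0.0485). The call was lost with thinning to the smallest library and on leaving out each of 5 of the 6 libraries, while the estimate ranged from -0.80 to -0.70 over 13 alternatives.

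Antisense reads, which entered only the alternative with reads on either strand, were counted for 3 of the 9 genes above the floor of 3 counts in every library. Csf1 had 270 antisense counts over the 6 libraries, or 1.75% to 4.18% of its sense and antisense counts in a library. Csf2rb had 2123, or 4.96% to 8.44%. Csf1r had 1862, which was 8.52% to 10.9% in suspension and 15.2% to 27.6% in the adherent libraries, against 6.24% to 7.30% over all genes. Hmgxb3 lies on the strand opposite Csf1r and overlaps it, with 2751 sense counts over the 6 libraries.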

How the results depend on the processing

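Each of the 8 tested genes kept its direction and its side of the threshold between fractions under all 15 or 16 alternatives run for it (either strand, DESeq2 size factors, DESeq2, filters, thinning, the day as a replicate block, a 2-fold test, the beta chains summed, 1 library left out). With the day as a replicate block 4074 genes were higher and 4343 lower in suspension, 4029 and 4303 with thinning as well, and no call on the 9 genes changed. Libraries of the same day correlated in their deviations at 0.318, 0.0952 and 0.253 for days 4, 5 and 6, so that not every pair was over 0.1. With at least 10 CPM in 3 libraries, 2365 genes were higher and 2741 lower, and 1 ligand was left to test. Against a 2-fold difference these were 1308 and 2451 (reported: 4044 and 4423). Of 20 pathway genes named, Shc1, Cbl, Cebpb and Il1a lost their call against a 2-fold difference, and Il1a without the adherent library of day 5. Leaving out 1 library gave 2924 to 4180 higher and 3678 to 4478 lower genes.

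Counts on slopes moved more. DESeq2 called 1478 genes (3 members) on the common slope, 802 (1) on the suspension slope, 901 falling genes on the adherent slope and 1033 (4) on the difference. With no filter these were 66 (1), 809 (1), 908 falling, with 1738 rising and 2 ligands falling, and 1006 (4). The reported counts are 2, 74, 525 falling, 1156 rising and 77. With thinned counts the difference gave 26 genes and 0 members. Leaving out 1 library gave 0 to 13 genes and 0 members on the common slope, and 0 to 544 genes and 0 to 1 members on the suspension slope. It gave 218 to 1903 rising and 70 to 999 falling genes, 1 to 5 receptor chains and 0 to 1 ligands on the adherent slope, and 0 to 859 genes and 0 to 4 members on the difference. Such fits have fewer libraries, and the cause was otherwise not tested.

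The share of Csf2rb2 in the pair differed by -8.21 to -6.06 percentage points with 1 library left out. Slopes that changed sign passed no test in either setting. Leaving out 1 library, the common slope ranged from -1.28 to 1.43 for Csf3 (0.34 by DESeq2), from -0.039 to 0.39 for Csf2ra (also -0.021) and from -0.091 to 0.45 for Csf2rb. The adherent slope of Csf3 ranged from -2.49 to 1.26. The suspension slope of Csf2rb2 ranged from -0.077 to 0.056 (also -0.010), and was -0.012 with the 10 CPM filter. The difference of slopes ranged from -5.64 to 0.77 for Il34, from -0.88 to 0.11 for Csf1r and from -0.96 to 0.081 for Csf3r. Depth limits Csf2, Csf3 and Il34, of which 7 of 18 values were under 3 counts.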
